A study of Rattus norvegicus with 9 samples.

Results

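Chemokines and their receptors were examined as 1 family in whole bone of the rat skull and limb. The family held every gene whose symbol in the platform annotation named a CC, CXC, CX3C or XC chemokine, a receptor for these, or an atypical chemokine receptor. There were 45 such genes among 14217 genes with a probe set of their own, 29 ligands (16 of the CC, 11 of the CXC and 2 of other classes) and 16 receptors (12 typical and 4 atypical). The skull was represented by 4 arrays of calvaria, the flat bones over the brain, and the limb by 5 arrays of ulna, a forelimb bone. All animals were untreated male CD rats of about 110 g. According to the methods, bones were cleared of soft tissue, sutures and epiphyses, and each extract pooled a group of rats, so a replicate is a pool and p-values measure the spread between pools. In such whole bone a lower signal can mean fewer cells of a type or less RNA per cell, which cannot be told apart. One label field of ulna 1, 2, 3 and 4 names the calvaria, against their titles. The scaled signal of the limb gene Hoxa9 was 1.82 to 4.8 on the 4 skull arrays and 60.4 to 79.0 on all 5 limb arrays.

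Chemokines are small secreted proteins that bind G protein-coupled receptors and draw cells along a gradient. In bone they hold blood stem cells and immature leukocytes in the marrow, release mature leukocytes to the blood and bring osteoclast precursors to resorption sites. Atypical receptors bind the same ligands without G protein signalling, and remove, store or transport them.

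Each probe set gave a MAS5 signal, an intensity on a linear scale, which was scaled to a common array median. Differences are given as skull minus limb on the log2 scale, with the standard error of the limma fit, and the S:L ratio is the mean signal of the skull over that of the limb. A gene was called when the limma adjusted p (Benjamini-Hochberg over all 31042 probe sets) lay below 0.05 and the difference reached 2-fold. Signals at or below 8.34, the highest value of the Trpn control sets, whose target is a bacterial transcript, were treated as background. The rule written for absent controls takes in further control sets and gives a level of 40.1, which is returned to below.

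Of the 45 genes, 8 (17.8%) were called, against 7.79% of all genes. Higher in skull were Ccl9, Ccl24 and Ccl7, that is 3 genes, where 3.47% of all genes were called. Lower in skull were 5 genes, Ccl6, Ccl21, Xcl1, Ccr3 and Cxcr2, where the share over all genes was 4.31%. At an adjusted p below 0.05 and any fold there were 16 (35.6%), 9 higher and 7 lower, against 29.6% of all genes. For 12 of the 45 (26.7%) the arrays of the sites did not overlap, against 28.9% of all genes. The median difference of the family was 0.13, with 0.33 for the ligands and -0.02 for the typical receptors, and that of all genes was -0.02. The differences of ligands and receptors thus lay on both sides of 0.

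**Figure D1:**
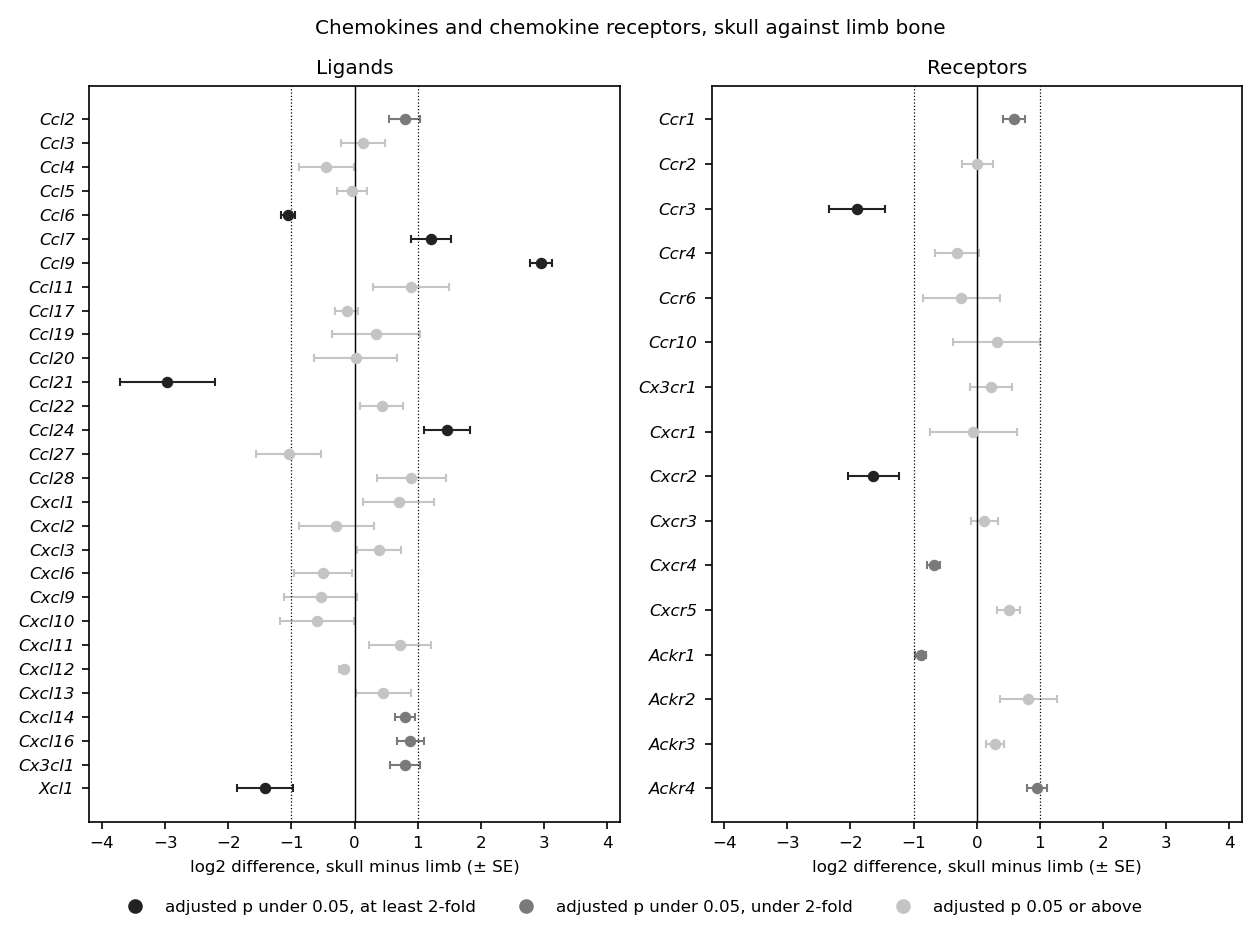
Difference between skull and limb bone for each of the 29 ligands and 16 receptors, as the log2 difference with its standard error (n = 4 skull and 5 limb arrays). Dotted lines mark 2-fold, shade marks the test, and Ccl9 stands at 2.96 while its neighbour Ccl6 stands at -1.05.

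The clearest contrast lay between a pair of neighbouring genes. Ccl9 and Ccl6 are CC chemokines of rodents that in mouse bind the receptor Ccr1, and mouse Ccl9 is made by osteoclasts and macrophages. In RefSeq order on chromosome 10 no protein-coding gene lies between them. Ccl9 was higher in skull and Ccl6 was lower, each with no overlap between the arrays. Their promoters are shown because the genes adjoin and differed in opposite directions. The 250 bases before each gene start are from RefSeq (GRCr8, minus strand), at chr10:68868878-68869127 for Ccl9 and chr10:68883367-68883616 for Ccl6. Capitals mark the best-scoring stretch that aligned without gaps, 36 of 41 bases identical (87.8%), which lies 55 to 15 bases before the start in Ccl9 and 124 to 84 bases before it in Ccl6.
Ccl9: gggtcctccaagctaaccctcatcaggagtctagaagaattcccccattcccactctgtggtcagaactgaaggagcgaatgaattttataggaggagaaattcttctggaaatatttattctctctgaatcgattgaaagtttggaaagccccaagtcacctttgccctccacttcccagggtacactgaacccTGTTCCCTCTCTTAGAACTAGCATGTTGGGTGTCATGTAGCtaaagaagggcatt
Ccl6: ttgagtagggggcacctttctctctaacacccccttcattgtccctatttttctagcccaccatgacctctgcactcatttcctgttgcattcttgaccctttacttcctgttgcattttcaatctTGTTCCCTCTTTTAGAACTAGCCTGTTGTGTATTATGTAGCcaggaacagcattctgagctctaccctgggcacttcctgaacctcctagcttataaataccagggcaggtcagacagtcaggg
The Ccl9 window held 1 match to the consensus of NF-kappaB, a factor of inflammatory signalling, 106 to 97 bases before the start. The Ccl6 window held 1 TATAAA, 32 to 27 bases before it. These matches describe letters and not bound sites.

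Ccl9 (probe set 1392172_at) had signals of 351.5, 464.5, 634.3 and 362.6 in skull, against 62.6, 62.4, 51.5, 59.7 and 48.9 in limb. The lowest skull array lay far above the highest limb array. Means were 453 ± 131 in skull and 57.0 ± 6.4 in limb (SD, n = 4 and 5), an S:L ratio of 7.95 and a log2 difference of 2.96 ± 0.17 (limma adjusted p = 2.37e-05). Ccl6 (1389123_at) had signals of 321.2, 297.9, 273.8 and 221.0 in skull, against 637.7, 542.6, 574.2, 517.7 and 598.6 in limb. All limb arrays lay above all skull arrays. Its means were 278 ± 43 in skull and 574 ± 47 in limb, with a log2 difference of -1.05 ± 0.11 (limma adjusted p = 0.00021). The Ccl6 difference was close to 2-fold, and without calvaria 4 it was -0.95, which ended the call. So did quantile normalization (-0.97), array weights (-0.99) and no median scaling (-0.999).

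Of all genes, 3.47% were called higher and 4.31% lower in skull, the shares to set beside each marker list below. Markers of osteoclasts and neutrophils differed between the sites, while most macrophage markers were not called. Of 6 measured osteoclast markers, 4 were higher in skull (Acp5, Mmp9, Ctsk and Calcr) and none was lower, and their summed signal was 10343 to 15094 on the skull arrays and 4579 to 5483 on the limb arrays. Of 8 macrophage markers, 2 were higher (Csf1r 1.53 and Cd68 1.38), none was lower and 6 were not called. The list median was 0.10, with Mrc1 at 0.52, C1qa at -0.06, C1qb at -0.01 and Cd163 at -0.25. The list summed to 3606 to 4725 in skull and 2372 to 2782 in limb. Much of that contrast came from Csf1r (means 953 in skull, 328 in limb) and Cd68 (1216 in skull, 464 in limb). Neutrophil markers ran opposite to osteoclast markers, with 4 of 6 lower in skull. Their sums were 8899 to 11051 in skull and 14398 to 19004 in limb. The part of these cell types in the differences of Ccl9 and Ccl6 was not tested.

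The same stretch of chromosome 10 holds Ccl5, Ccl3 and Ccl4, which flank Ccl9 and Ccl6 with no other protein-coding gene between. These ligands, Ccr1 among their receptors, draw monocytes and T cells to inflamed tissue. None of them was called. Ccl3 had signals of 42.5, 25.9, 40.6 and 34.9 in skull, against 37.3, 38.1, 57.8, 27.0 and 15.9 in limb, which overlapped fully. Its difference was 0.13 ± 0.35, that of Ccl4 was -0.45 ± 0.44 and that of Ccl5 was -0.04 ± 0.23 (limma adjusted p = 0.856, 0.552 and 0.944). Ccr1, a receptor on monocytes and osteoclast precursors, had signals of 176.5, 151.6, 215.5 and 109.2 in skull, against 116.3, 96.7, 92.8, 110.1 and 113.9 in limb. Only calvaria 4 lay within the limb range. The difference was 0.59 ± 0.18 (limma adjusted p = 0.0458), under 2-fold, and the adjusted p was at or above 0.05 in 8 of the 9 fits with 1 array left out, up to 0.111.

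A little further along the same chromosome lie Ccl2, Ccl7 and Ccl11, again with no protein-coding gene between them. Ccl2 and Ccl7 draw monocytes out of marrow through Ccr2, and Ccl11 (eotaxin) draws eosinophils through Ccr3. Ccl7 (1379935_at) had signals of 6.2, 10.6, 7.5 and 5.2 in skull, against 1.9, 0.9, 5.9, 2.1 and 3.0 in limb. Of these 9 values only calvaria 2 exceeded background, so no fold is given. Its test was passed (log2 difference 1.21 ± 0.32, limma adjusted p = 0.0245). The call ended without calvaria 2 (1.01, adjusted p = 0.0647), calvaria 3 (0.0594), ulna 1 (0.0566), ulna 2 (0.0574), ulna 4 (0.0578) or ulna 5 (0.0515), and with a higher floor under low signals, at the 25th percentile (0.02), or log2(signal + 16) in place of the floor (0.32). Ccl2 had signals of 23.6, 31.5, 33.4 and 30.1 in skull, against 25.5, 17.5, 16.4, 11.4 and 16.8 in limb. Ulna 1 alone reached the skull range. The difference was 0.79 ± 0.25 (limma adjusted p = 0.0490), under 2-fold, and the adjusted p was at or above 0.05 in 8 of 9 fits with 1 array left out, up to 0.118. Ccr2 was not called, with means of 33.8 ± 9.8 in skull and 33.05 ± 6.89 in limb (0.01 ± 0.24).

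The eotaxin axis gave opposite differences for a ligand and its receptor. Ccl24 (eotaxin-2), a ligand of Ccr3, was higher in skull, while Ccr3, the receptor that marks eosinophils, was lower. Ccl24 (1385309_at) had signals of 25.5, 22.0, 28.9 and 19.7 in skull, against 12.2, 11.4, 4.0, 6.9 and 12.3 in limb. The sites did not overlap, and ulna 3 and ulna 4 were at background. Means were 24.0 ± 4.0 in skull and 9.38 ± 3.73 in limb, with an S:L ratio of 2.56 and a log2 difference of 1.46 ± 0.37 (limma adjusted p = 0.0206). Without calvaria 1 (1.43, adjusted p = 0.0513) or calvaria 3 (1.37, adjusted p = 0.0591) the call ended, as it did with log2(signal + 16) (0.67). Ccr3 (1369808_at) had signals of 8.9, 12.0, 2.3 and 6.9 in skull, against 36.3, 21.8, 23.9, 20.8 and 22.3 in limb. The sites did not overlap, and calvaria 3 and calvaria 4 were at background. Means were 7.53 ± 4.07 in skull and 25.03 ± 6.42 in limb, and the log2 difference was -1.90 ± 0.44 (limma adjusted p = 0.0139). The skull mean lay below background, so the size of this difference is not resolved. The call was made in all 9 fits with 1 array left out and ended with log2(signal + 16) (-0.81). Ccl11 was not called (0.90 ± 0.60, limma adjusted p = 0.359), with 3 of 5 limb arrays at background.

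Eosinophil markers moved with Ccr3. Of 4 measured, 2 were lower in skull and none was higher: the granule proteins Epx (-1.82 ± 0.14) and Prg2 (-1.26 ± 0.15). The 4 markers summed to 1991 to 3277 on the skull arrays and 6262 to 8036 on the limb arrays. Their part in the difference of Ccr3 was not tested. Ccr1 and Ccr3 are adjacent genes on chromosome 8, and their differences had opposite signs.

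Cxcr2, the receptor through which Cxcl1 and Cxcl2 release neutrophils from marrow, was lower in skull. Its signals (1369697_at) were 14.0, 24.0, 20.3 and 5.8 in skull, against 60.6, 38.4, 37.9, 49.0 and 38.1 in limb. All skull arrays lay below all limb arrays, with calvaria 4 at background. Means were 16.1 ± 8.0 in skull and 44.8 ± 10.01 in limb, an S:L ratio of 0.358 and a log2 difference of -1.64 ± 0.40 (limma adjusted p = 0.0174). The call was made in all 9 fits with 1 array left out and ended with log2(signal + 16) (-0.95). Neutrophil markers were lower on the same skull arrays, where Camp (-1.26), Lcn2 (-1.17), Mmp8 (-1.81) and Cebpe (-1.16) were called and the sums were as given beside Ccl6. Their part in the difference of Cxcr2 was not tested. The means of Cxcl1 and Cxcl2 lay below background at both sites, although single arrays exceeded it. They were 6.89 in skull and 4.21 in limb for Cxcl1 (0.70 ± 0.57) and 6.45 in skull and 7.14 in limb for Cxcl2 (-0.29 ± 0.59). Cxcl3, a further ligand of Cxcr2, was read by 5 probe sets. The brightest exceeded background on all 9 arrays, with means of 19.1 in skull and 15.6 in limb, and was not called (0.39 ± 0.36). All other Cxcl3 sets had both means below background, at most 5.46 in skull and 5.64 in limb, and none was called. Cxcr1, the neighbouring receptor of the same class, had a difference of -0.05 ± 0.68.

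**Figure D2:**
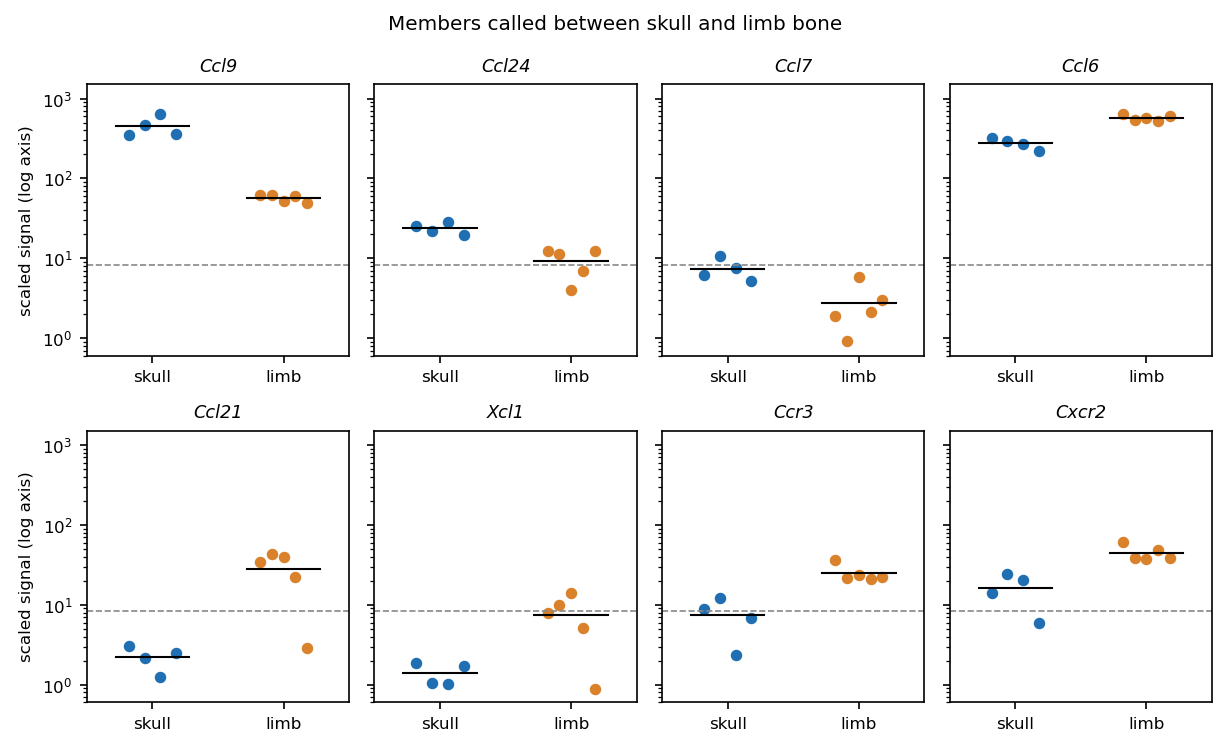
Scaled signal (log axis) on each skull (blue, n = 4) and limb (orange, n = 5) array for the 8 called genes, with a bar at the mean and the background level of 8.34 dashed. Ccl9 and Ccl6 lay far above background at both sites, whereas Ccl7 and Xcl1 had both means below it.

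Ccl21 and Xcl1 act on lymphoid tissue. Ccl21, which lymphatic vessels and lymph nodes use to draw T cells and dendritic cells through Ccr7, was lower in skull. Its signals (1378015_at) were 3.1, 2.2, 1.3 and 2.5 in skull, against 34.4, 42.8, 39.6, 22.3 and 2.9 in limb. No skull array exceeded background, while 4 of 5 limb arrays did and ulna 5 did not. Means were 2.25 ± 0.76 in skull and 28.4 ± 16.3 in limb. Since the skull level is only a bound, the limb was at least 2.47-fold higher (log2 difference of the fit -2.96 ± 0.75, limma adjusted p = 0.0213). The call ended without calvaria 2 (adjusted p = 0.0559), calvaria 3 (0.0550), calvaria 4 (0.0522), ulna 1 (0.0506) or ulna 3 (0.0512), with differences of -2.94 to -2.73 in these fits. Without ulna 5 the difference was -3.68 (adjusted p = 0.000189) and the limb at least 4.05-fold higher. The bound fell to 2.17-fold without ulna 1, 2.06-fold without ulna 2, 2.10-fold without ulna 3 and 2.42-fold without ulna 4. Of 8 skeletal muscle markers, 8 were lower in skull, with sums of 61.3 to 113 in skull and 7694 to 18897 in limb. The part of muscle and its vessels in the difference of Ccl21 was not tested.

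Ccl19, the other ligand of Ccr7, had a difference of 0.33 ± 0.70 (limma adjusted p = 0.804), and Ccr7 was not used here. Xcl1, a product of T and NK cells, had signals (1387831_at) of 1.9, 1.0, 1.0 and 1.7 in skull, against 7.9, 9.8, 13.9, 5.1 and 0.9 in limb. Only ulna 2 and ulna 3 exceeded background, so no fold is given, and ulna 5 lay below all skull arrays. The test was just passed (-1.43 ± 0.44, limma adjusted p = 0.0497), and with 1 array left out it was passed only without ulna 5 (-1.78). It was not passed with a floor at the 25th percentile (-0.10), log2(signal + 16) (-0.41), no median scaling (-1.40), no intensity trend or the methods' own test (-1.43 each). Of 13 T and NK cell markers, Cd4 was higher in skull (1.42) and Nkg7 lower (-1.36), while 11 were not called and the list median was -0.06. The list summed to 660 to 774 in skull and 1025 to 1147 in limb, and Nkg7 alone averaged 202 in skull and 508 in limb. Their part in the difference of Xcl1 was not tested. Xcr1, the receptor of Xcl1, was not used here.

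Cxcl12 keeps blood stem cells and leukocyte precursors in marrow through Cxcr4, and the atypical receptor Ackr3 removes it. The probe set of Cxcl12 with the highest signal (1388583_at) had signals of 1680, 1649, 1707 and 1419 in skull, against 1713, 1849, 1885, 1784 and 1846 in limb. The sites did not overlap, yet the means differed little, 1614 ± 132 in skull and 1815 ± 68 in limb (-0.17 ± 0.07, limma adjusted p = 0.123). The other Cxcl12 probe sets had the opposite sign, one with means of 789 ± 101 in skull and 578 ± 52 in limb (0.45 ± 0.10, adjusted p = 0.0110) and one with 265 ± 17 in skull and 200 ± 36 in limb (0.42 ± 0.13, adjusted p = 0.0525). With the mean of the 3 probe sets the difference was 0.23 (adjusted p = 0.0463), so these arrays give no settled direction for Cxcl12.

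Cxcr4 was lower in skull by all 3 of its probe sets, each under 2-fold. The first, whose suffix marks probes that may bind other sequences too, had signals of 929.1, 813.0, 702.7 and 747.8 in skull, against 1435, 1393, 1176, 1145 and 1255 in limb. Every limb array lay above every skull array. Means were 798 ± 98 in skull and 1281 ± 129 in limb (S:L ratio 0.623, -0.68 ± 0.10, limma adjusted p = 0.00132). The other sets gave -0.75 ± 0.13 (adjusted p = 0.0030) and -0.997 ± 0.117 (adjusted p = 0.000377), neither of which was called. Ackr3 was not called, with means of 287 ± 63 in skull and 232 ± 23 in limb (0.29 ± 0.14, adjusted p = 0.186).

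**Figure D3:**
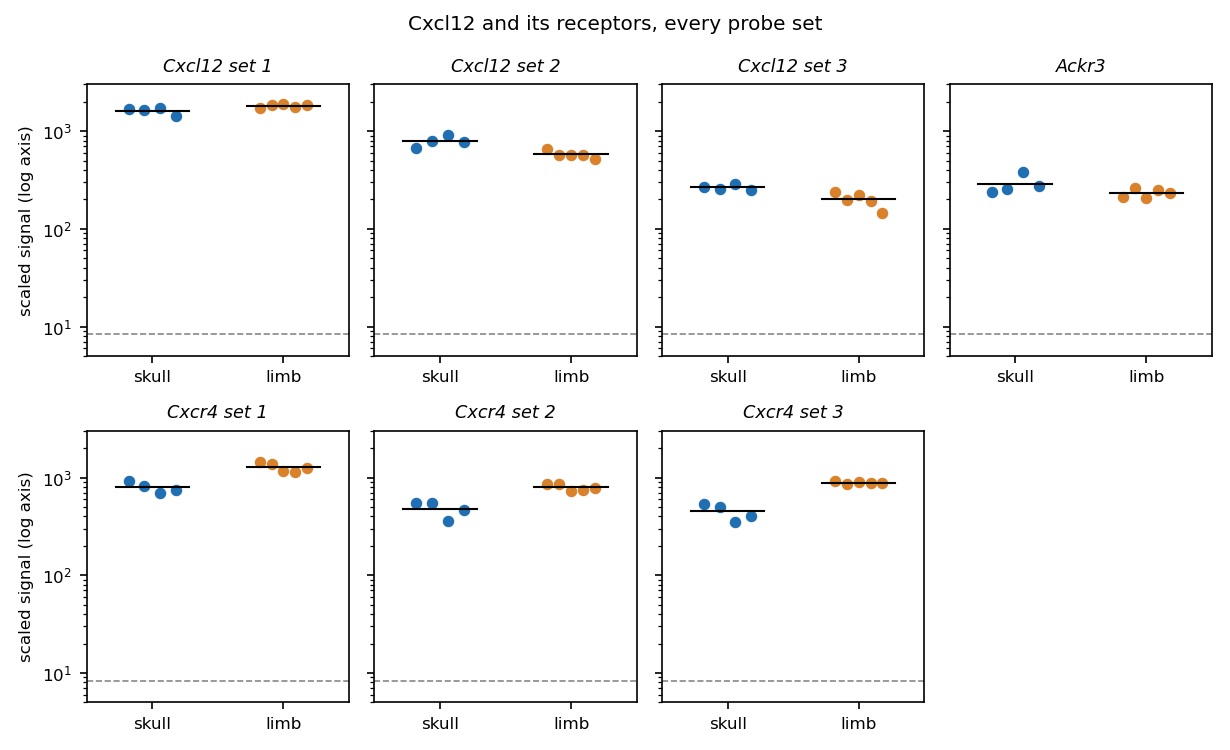
Scaled signal (log axis) of every probe set of Cxcl12, Cxcr4 and Ackr3 on the skull (blue, n = 4) and limb (orange, n = 5) arrays, with bars at the means and the background level of 8.34 dashed. All 3 Cxcr4 sets were lower in skull, whereas Cxcl12 set 1 (-0.17) and sets 2 and 3 (0.45 and 0.42) had opposite signs.

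Among the atypical receptors, Ackr1 and Ackr4 passed the test under 2-fold and in opposite directions. Ackr1 (the Duffy antigen receptor), which erythroid cells and the endothelium of small veins carry, had signals of 198.8, 189.4, 168.0 and 215.7 in skull, against 323.9, 392.4, 361.7, 331.8 and 370.2 in limb. The sites were widely separated. Means were 193 ± 20 in skull and 356 ± 28 in limb (S:L ratio 0.542, -0.89 ± 0.08, limma adjusted p = 0.000134). Erythroid markers moved with it, with 6 of 7 lower in skull, none higher, and sums of 10064 to 10590 in skull and 13014 to 17165 in limb. Of 7 endothelial markers, Emcn was called higher (1.02) and Vwf lower (-1.27). The 5 not called (Tek, Kdr, Pecam1, Tie1 and Esam) all passed the test higher in skull under 2-fold, at 0.40 to 0.80. The list median was 0.51, with sums of 1464 to 1569 in skull and 1167 to 1363 in limb. Their part in the difference of Ackr1 was not tested.

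Ackr4, which removes Ccl19 and Ccl21, had signals of 94.1, 135.9, 117.7 and 113.9 in skull, against 69.6, 58.0, 43.5, 64.0 and 63.3 in limb. The sites did not overlap. Its difference was 0.96 ± 0.15 (S:L ratio 1.93, limma adjusted p = 0.00215), and without calvaria 1 (1.05) or ulna 1 (1.02) it passed 2-fold and was called. Ackr2, a scavenger of inflammatory CC chemokines, was not called (0.82 ± 0.45, adjusted p = 0.262). Its second probe set, with both means below background, was not called either (1.14 ± 0.45, adjusted p = 0.110).

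Further ligands passed the test under 2-fold, all higher in skull. Cxcl14, a chemokine made without stimulation in many tissues, had signals of 741.6, 903.2, 1198 and 1333 in skull, against 528.3, 584.9, 645.6, 594.3 and 570.6 in limb. The sites did not overlap. Means were 1044 ± 270 in skull and 585 ± 42 in limb (0.80 ± 0.16, limma adjusted p = 0.00679), and a second probe set, with means of 32.6 in skull and 15.0 in limb, was called (1.13 ± 0.34, adjusted p = 0.0419). Cxcl16, a membrane-bound ligand of Cxcr6, had signals of 84.9, 103.6, 123.9 and 113.3 in skull, against 41.9, 75.3, 75.4, 59.5 and 43.2 in limb, again without overlap. Its difference was 0.88 ± 0.21 (adjusted p = 0.0172, and 0.0540 without calvaria 3). Cxcr6 was not used here. Cx3cl1 (fractalkine), a tethered ligand of monocytes, had signals of 42.3, 36.6, 32.0 and 45.1 in skull, against 29.2, 23.6, 14.9, 18.2 and 28.7 in limb. The sites did not overlap, and the difference was 0.80 ± 0.24 (adjusted p = 0.0415), with an adjusted p at or above 0.05 in 7 of 9 fits with 1 array left out, up to 0.104. Its receptor Cx3cr1 was not called (0.23 ± 0.33, adjusted p = 0.702). Ccl17 and Ccl22, ligands of Ccr4 on either side of Cx3cl1 on chromosome 19, gave -0.12 ± 0.18 and 0.43 ± 0.34. A second Ccl22 probe set gave 0.74 ± 0.70.

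**Figure D4:**
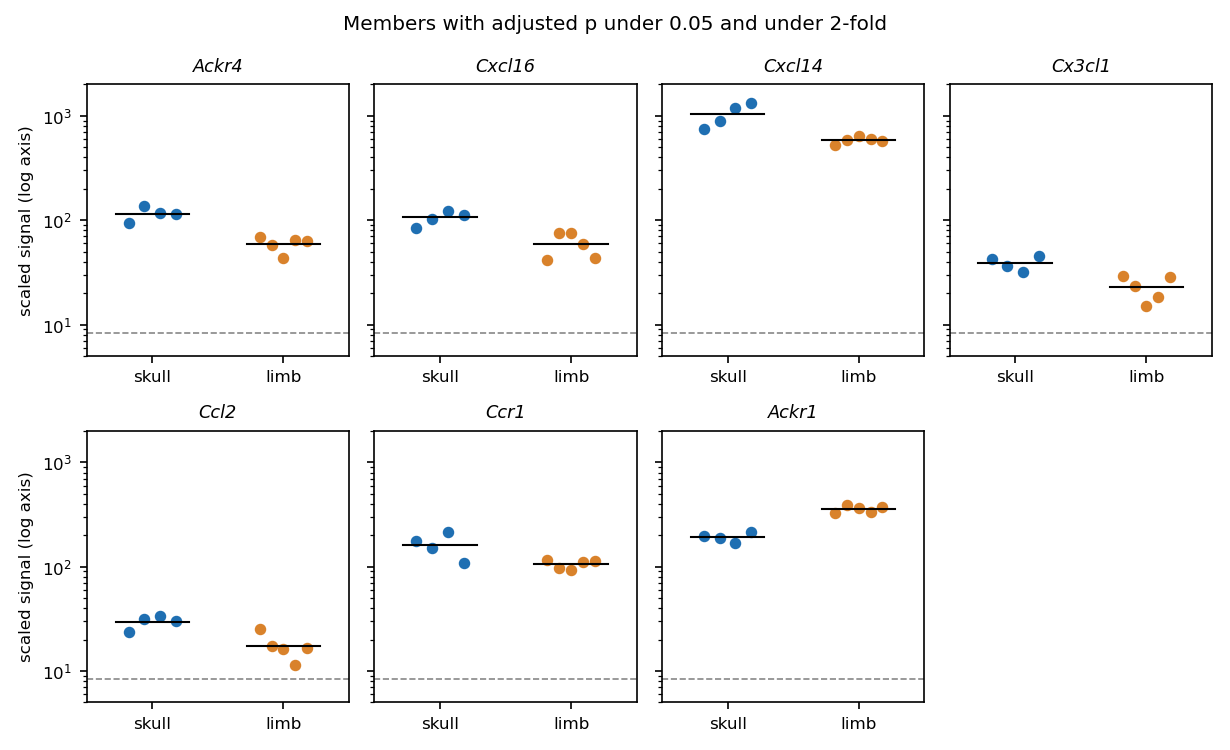
Scaled signal (log axis) on each skull (blue, n = 4) and limb (orange, n = 5) array for 7 of the 8 genes with an adjusted p below 0.05 and less than 2-fold (Cxcr4 is plotted with Cxcl12), with bars at the means and the background level of 8.34 dashed. Among these 7, the sites overlapped for Ccl2 and Ccr1 alone.

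The 29 genes with an adjusted p at or above 0.05 had differences of -1.04 to 0.90, with standard errors of 0.07 to 0.70. The interferon-induced ligands Cxcl9 (-0.54 ± 0.58), Cxcl10 (-0.59 ± 0.58) and Cxcl11 (0.71 ± 0.49), and their T cell receptor Cxcr3 (0.12 ± 0.21), were among them. A second Cxcl9 probe set, with both means below background, gave 0.17 ± 0.52. Cxcl13, which builds B cell follicles, had a difference of 0.45 ± 0.44. Its receptor Cxcr5 gave 0.51 ± 0.19, with means of 81.5 ± 24.0 in skull and 56.2 ± 7.4 in limb (limma adjusted p = 0.0913, the lowest of the 29). A second Cxcr5 probe set, with means of 14.8 in skull and 12.8 in limb, gave 0.18 ± 0.38 (adjusted p = 0.805). Ccl20 and its receptor Ccr6 gave 0.02 ± 0.66 and -0.25 ± 0.61. The epithelial ligands Ccl27 (-1.04 ± 0.52) and Ccl28 (0.90 ± 0.55) and their receptor Ccr10 (0.31 ± 0.69) had the wide errors of signals near background. Cxcl6 (-0.50 ± 0.46) and Ccr4 (-0.31 ± 0.35) were also among the 29. Of the 3 B cell markers measured none was called, with sums of 1465 to 2099 in skull and 1927 to 2477 in limb.

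Signal level limited what could be seen. Of the 45 genes, 19 exceeded background on all 9 arrays, and 9 had both site means at or below it. For the 13 genes whose mean signal reached the median over all probe sets (33.8), the median of the SD within sites was 0.257 on the log2 scale, against 0.717 for the 32 others. Of the 8 called genes, 4 had at least 1 site mean at or below background (Ccl7, Ccl21, Xcl1 and Ccr3). The rule written for absent controls also took the 5' sets of the lys and phe controls, whose mean signals lay below that median. It gives a level of 40.1, and keeping the Trpn sets alone was a choice made after seeing the data. At 40.1, 3 called genes (Ccl9, Ccl6 and Cxcr2) have a site mean above the level. Ccl24, Ccl7, Ccl21, Xcl1 and Ccr3 have both site means below it.

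**Figure D5:**
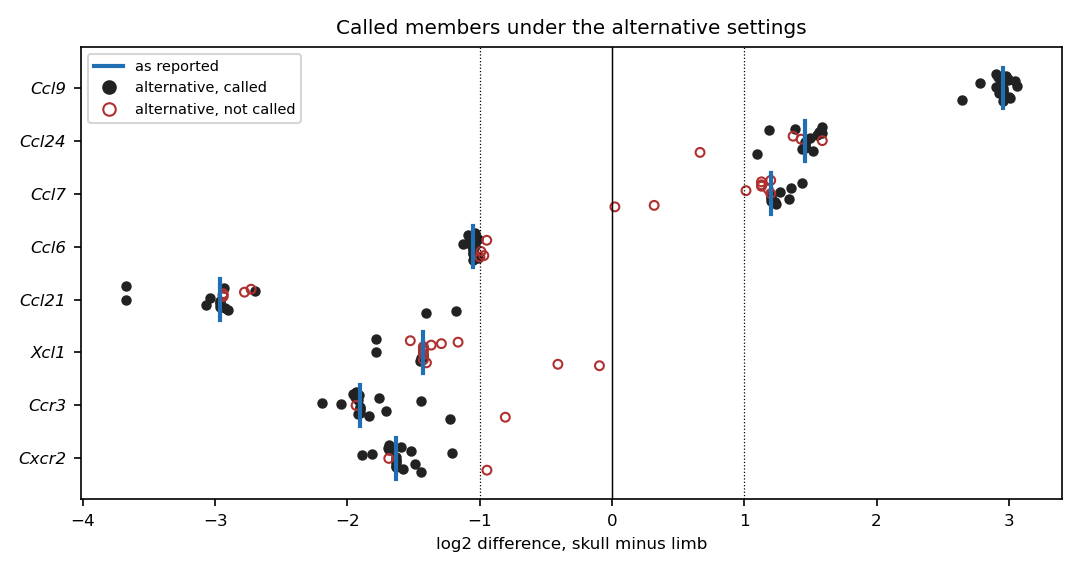
Log2 difference (skull minus limb) of the 8 called genes as reported (blue bar) and under each alternative setting (filled where called, open where not, spread vertically for sight only). Ccl9 was called in 20 of 20 alternatives, between 2.65 and 3.06, and Xcl1 in 6 of 19.

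Promoters of 35 of the 45 genes were found in the RefSeq table. In the 250 bases before the start, TATAAA on the gene's strand occurred in 9 of these (25.7%), against 8.06% of 33469 promoters. The NF-kappaB consensus, searched on both strands, occurred in 9 (25.7%) against 6.33%, among them Ccl9, Ccl7, Cxcl1, Cxcl2 and Cxcl10. GAGGAA, the core of myeloid PU.1 sites, was in 13 (37.1%) against 23.3%, and TGANTCA, the AP-1 motif, in 5 (14.3%) against 6.34%, both on either strand. A base could count toward more than 1 motif. The 33469 promoters are all entries of the table and not only those of measured genes, whereas each member was counted once. Several members with an NF-kappaB match are adjacent genes (Cxcl1 and Cxcl2, Cxcl10 and Cxcl11), so their promoters may not be independent. The genes with an NF-kappaB match stood on both sides of 0 between the bones, with Ccl9 at 2.96 and Ccr3 at -1.90.

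Genes that act with chemokines were counted from lists chosen with the family. Over all genes, 7.79% were called, 3.47% higher and 4.31% lower in skull. Of 11 measured relatives outside the naming rule, 3 were lower in skull and none higher, with a median difference of -0.92: the platelet chemokines Ppbp (-2.54 ± 0.13) and Pf4 (-1.49 ± 0.12), and Cklf (-1.05 ± 0.14). Ppbp and Pf4 lie between Cxcl3 and Cxcl6 on chromosome 14, neither of which was called. Platelet markers, which include both genes, were lower for 7 of 7, with sums of 1457 to 2136 in skull and 6293 to 6964 in limb. Their part was not tested. Of 38 signalling genes downstream of the receptors, 35 were not called, so the share called was near that of all genes. The adaptor Bcar1 (1.19) was higher, and the platelet regulator Rgs18 (-1.78) and the arrestin Arrb2 (-1.20) were lower. The median was -0.18.

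Proteases that cut chemokines included more calls, against 7.79% of all genes. Of 10 measured, Mmp9 (1.60 ± 0.12), Ctsk (1.43 ± 0.13) and Mmp13 (1.21 ± 0.12) were higher in skull and the neutrophil collagenase Mmp8 (-1.81 ± 0.21) was lower, with a median of 0.49. Mmp9 and Ctsk are also among the osteoclast markers given beside Ccl9. Of 11 stromal niche factors, Pdgfra (1.15 ± 0.13) was higher, none was lower and 10 were not called (median 0.60). Among 16 adhesion molecules, 14 were not called (median 0.01). Icam1 (1.08 ± 0.11) was higher and Itgam (-1.32 ± 0.21), the integrin subunit of myeloid cells, was lower. None of 19 NF-kappaB genes and inducing cytokines was called (median 0.11). Il17ra at -0.58 ± 0.11 and Ifngr1 at -0.05 ± 0.05 had the highest signals. Il1b was close to 2-fold lower in skull (-0.96 ± 0.14, limma adjusted p = 0.00136). Il17ra also passed the test lower, and Il1r1 (0.77 ± 0.13) and Nfkbia (0.54 ± 0.09) passed it higher, all under 2-fold.

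Calls were also made in the remaining marker lists, to be read against the 7.79% of all genes called. Mast cell markers were higher in skull for 4 of 9 and none was called lower, although Ms4a2 was at -0.86 ± 0.12 (limma adjusted p = 0.000841), with sums of 708 to 920 in skull and 386 to 469 in limb. Of 9 markers of dendritic cells and MHC class II, RT1-Da and RT1-Bb were called higher and Flt3 lower. RT1-Ba (0.73), RT1-Db1 (0.63) and Cd74 (0.62) also passed the test higher in skull under 2-fold, while Ciita, Itgax and Batf3 did not pass it. The list median was 0.62, with sums of 2915 to 4122 in skull and 1883 to 2293 in limb. Of 6 bone matrix genes, Ibsp was higher (1.06) and the others were not called, with overlapping sums of 25437 to 32426 in skull and 19489 to 27927 in limb. No marker in these lists was at or below background on all arrays of a site, except 1 muscle marker, Tnnc2, in skull.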

How the data were processed

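Basal expression was measured on Affymetrix Rat Genome 230 2.0 arrays, 4 of calvaria (skull) and 5 of ulna (limb), grouped by title and source name. The authors deposited linear intensities from MAS5, which summarises the probes of a set into 1 signal, and had scaled each array to a trimmed mean of 100.03. Array medians were 33.01 to 36.59 and the highest signals 5503 to 8616. The number of arrays, not a read depth, limits the precision. Array software version and image processing are not given in the sources used here. No deposited column was left unused.

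Arrays were brought to a common median, the mean of the array medians over 31042 non-control probe sets. Values below the 10th percentile of all signals (2.51) were raised to it before log2 was taken, which understates differences of genes near the floor. Skull was compared with limb in limma (version 3.58.1, R 4.3.3) with an intensity trend. All probe sets were tested, and p was adjusted by Benjamini-Hochberg over all of them. The fit was tested on simulated data with differences planted only in probe sets above the median signal. Recovery of differences in dimmer probe sets was thus not tested, and only 2 of the 8 called genes reach that median. A gene was represented by the probe set of highest mean log2 signal among those naming it alone. The annotation named 1 symbol for 20826 probe sets, several for 436 and none for 9780, and 20758 of the first were matched to RefSeq (GRCr8), used for names and gene order. The family had 58 probe sets, with 1 for 37 genes and several for 8. Named were all called genes, those passing the test under 2-fold, those of highest signal and known ligand and receptor pairs. Where arrays share a number across sites (calvaria 1 and ulna 1), their deviations from the site means correlated at -0.010 to 0.043. Arrays with unlike numbers correlated at -0.037 to 0.022. The highest values were those of calvaria 4 with ulna 4 (0.043) and calvaria 1 with ulna 1 (0.038). Values this small cannot decide whether same-numbered arrays share rats, which the labels do not say. The main fit did not pair them, and a fit with a replicate block was run as an alternative. Members, lists and rules were chosen with earlier results of these data known. Alternatives covered the floor, a pseudocount of 16, scaling, a filter on dim probe sets, the prior variance, array weights, the p adjustment, probe set averaging, the methods' own test, a replicate block and each array left out.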

Additional observations from a re-analysis of the deposited data

Results flagged for a closer look

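Among 90 groups of arrays (45 genes at each site), 7 had 1 array far from the others of its site, where chance gives about 1 in 20. Of the called genes, Ccl7 had its highest limb signal on ulna 3 (5.864), Ccr3 its highest limb signal on ulna 1 (36.34), and Ccl21 stood apart on calvaria 1 (3.068, the highest skull value) and on ulna 5 (2.853, the lowest limb value). The values of Ccl7 and those of Ccl21 named here lay below background. For genes not called, Ccl28 was highest in limb on ulna 4 (8.993), Cxcl9 was lowest in skull on calvaria 3 (1.613) and Ccr4 was highest in skull on calvaria 4 (4.854).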

How the results depend on the processing

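Of the 154 refits of called genes, 115 kept the call and 39 lost it, all with the same sign. Of the 714 of genes not called, 667 kept sign and side, 3 became calls (Ackr4) and 44 changed sign. Against 3 higher and 5 lower, the counts were 1 and 2 with log2(signal + 16), 1 and 1 with a filter on dim probe sets, and 4 and 3 without median scaling. Over all genes log2(signal + 16) called 686 against 1107. With 1 array left out, 1 to 3 genes were higher and 2 to 5 lower. The replicate block, with ulna 5 left out, gave 1 higher and 3 lower, ending the calls of Ccl24 (1.59, limma adjusted p = 0.0694), Ccl7 (0.0777), Ccr3 (-1.94, 0.0561) and Cxcr2 (-1.69, 0.0845). The calls of Ccr3 and Cxcr2 also ended with log2(signal + 16) (-0.81 and -0.95), as did those of Ccl24 (0.67) and Ccl7 (0.32), and that of Ccl6 with quantile normalization (-0.97), array weights (-0.99) and no median scaling (-0.999). With a floor at the 25th percentile Ccl7 stood at 0.02.

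Sign changes concerned uncalled genes alone. With ulna 5 left out, with or without the block, Ccl3 was -0.13, Ccl5 0.0398, Ccl20 -0.16 and Cxcr1 0.16. A floor at the 25th percentile gave Ccl19 -0.0046, Ccl20 -0.0734, Cxcl2 0.0933, Ccr6 0.0488, Ccr10 -0.0620 and Cxcr1 0.0235. Without median scaling Ccl5 was 0.0171 and Cxcr1 0.0068, with array weights 0.0949 and 0.12, with quantile normalization Ccr2 was -0.0089, and with the mean of probe sets Cxcl3 was -0.0520 and Cxcl12 0.23. With 1 array left out the ranges were -0.13 to 0.34 for Ccl3, -0.66 to 0.0550 for Ccl4, -0.20 to 0.0979 for Ccl5, -0.0549 to 0.81 for Ccl19, -0.33 to 0.55 for Ccl20, -0.80 to 0.0686 for Cxcl2, -0.84 to 0.17 for Cxcl9, -1.01 to 0.0545 for Cxcl10, -0.15 to 0.16 for Ccr2, -0.66 to 0.11 for Ccr6, -0.0702 to 0.82 for Ccr10, -0.47 to 0.57 for Cxcr1 and -0.0152 to 0.21 for Cxcr3. The cause was not tested.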
